A study of Mus musculus with 3 samples.

Results

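Transcripts of 10 chemokine genes, Ccl3, Ccl4, Ccl5, Ccl6, Ccl9, Ccl22, Cxcl2, Cxcl9, Cxcl14 and Cxcl16, were followed through mouse spleen cells sequenced cell by cell. The members were taken by gene symbol. Each was found as 1 gene of the 32285 in the count tables, and all 10 are described whatever their values. Every cell came from mice aged 12 to 14 weeks, and T cells had been removed from the spleen suspensions with CD3 beads before sequencing.

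There were 3 libraries, 1 for each group. The control library held male C57Bl/6 mice given sham treatment together with female C57Bl/6 mice. The AngII library held male C57Bl/6 mice infused with angiotensin II, a hormone that raises blood pressure, at 490 ug/kg/min (as the labels give it) from an osmotic pump for 2 weeks from the age of 10 weeks, together with mice that also received 2-hydroxybenzylamine (2HOBA), a scavenger of reactive lipid aldehydes. The SLE123 library held female B6.SLE123 mice, a C57Bl/6 congenic strain that carries lupus susceptibility loci, together with B6.SLE123 mice given 2HOBA for 6 weeks from the age of 7 weeks. Each library pooled 2 conditions of 3 mice under 6 antibody hashtags, C0301 to C0306, that the labels do not tie to a condition. The 2 conditions inside a library were therefore not separated, 2HOBA was not analysed, and no comparison was matched for sex. Strain, treatment and library cannot be told apart wherever they differ between the libraries. With 1 library per group no test was possible, and every interval below is a 95% interval that covers counting error only.

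Chemokines are small secreted proteins that bind G protein-coupled receptors on leukocytes and draw the cells along a gradient. They are divided into CC and CXC families by the spacing of their first cysteines. In the spleen they place lymphocytes and dendritic cells in their compartments and call neutrophils and monocytes to sites of inflammation. Ccl3, Ccl4 and Ccl5 draw monocytes, NK cells and T cells, Ccl6 and Ccl9 are rodent ligands of Ccr1, Ccl22 binds Ccr4, Cxcl2 binds Cxcr2 on neutrophils, Cxcl9 is an interferon-gamma-induced ligand of Cxcr3, and Cxcl16 is a membrane-tethered ligand of Cxcr6. Cxcl14 is known as a constitutive chemokine of epithelia.

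The limits on cells left 15700 control, 14023 AngII and 16708 SLE123 cells with a median of 1759, 2724 and 1888 UMIs (unique molecular identifiers, each a counted RNA molecule) per cell. Cells fell into 33 clusters, made without chemokine ligand genes. 5 of them stayed unnamed and the others took 1 of 16 class names from their markers. Between 415 and 496 cell barcodes were shared by each pair of libraries, which is 2.58% to 2.95% of the smaller library. The T cell-like class held 45, 420 and 19 cells, and 319 of the 420 AngII cells carried hashtag C0303. The SLE123 cells of hashtag C0303 stood apart. They had the highest median depth of that library, 2542.5 UMIs, and supplied 89.7% of its 194 cells of a class marked by C1q genes and Fcgr4 (C1q moDC-like), 45.3% of its 450 nonclassical monocyte-like cells and 40.6% of its 757 neutrophil-like cells. Values that rest on this hashtag are given with and without it.

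Of the 10 genes, 5 lie together on chromosome 11 of the GRCm38 build. From the start of Ccl5 (83525778-83530518, minus strand) the order is Ccl9 (83572919-83578636, minus), Ccl6 (83587882-83593087, minus), Ccl3 (83647844-83649355, minus) and Ccl4 (83662584-83664683, plus), which together span 138.906 kb. Ccl6 and Ccl9 are 9.245 kb apart, and Ccl3 and Ccl4 are 13.228 kb apart and transcribed away from each other. Cxcl16 is on the same chromosome at 70453983-70459984 (minus). Cxcl2 (90903871-90905938, plus) and Cxcl9 (92321347-92328079, minus) are on chromosome 5, Ccl22 (94745590-94751699, plus) on chromosome 8 and Cxcl14 (56288643-56296551, minus) on chromosome 13. All 10 are annotated as protein coding.

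RefSeq promoter sequence (GRCm38.p6) was found for 7 members, and Ccl4, Ccl5 and Cxcl16 had no entry. Start sites here are those of RefSeq, and distances are counted from them. For Ccl3, Cxcl2 and Ccl22 they differ from the gene positions given above. The 250 bases before the start site were searched on both strands for the PU.1 core GAGGAA, the kappaB form GGGANTTCC, a longer kappaB form with a further N beside the first, and the interferon-gamma-activated sequence TTCNNNGAA. The longer kappaB form was added after the Cxcl2 promoter had been read. The 4 promoters with a match are shown because they belong to genes with very different producing cells, as described below. Capitals mark the matched letters. Ccl3 is at chr11:83649379-83649628 (minus), Cxcl2 at chr5:90903649-90903898 (plus), Cxcl9 at chr5:92328080-92328329 (minus) and Cxcl14 at chr13:56296552-56296801 (minus).
Ccl3: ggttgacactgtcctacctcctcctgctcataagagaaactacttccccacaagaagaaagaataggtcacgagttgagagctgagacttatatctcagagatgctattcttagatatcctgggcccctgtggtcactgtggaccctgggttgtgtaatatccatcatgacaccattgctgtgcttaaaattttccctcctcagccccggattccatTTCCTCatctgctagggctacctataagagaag
Cxcl2: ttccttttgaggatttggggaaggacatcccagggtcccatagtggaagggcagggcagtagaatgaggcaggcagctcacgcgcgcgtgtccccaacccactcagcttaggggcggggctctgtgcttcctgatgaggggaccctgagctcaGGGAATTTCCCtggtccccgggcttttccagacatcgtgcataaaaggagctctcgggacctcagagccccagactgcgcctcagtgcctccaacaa
Cxcl9: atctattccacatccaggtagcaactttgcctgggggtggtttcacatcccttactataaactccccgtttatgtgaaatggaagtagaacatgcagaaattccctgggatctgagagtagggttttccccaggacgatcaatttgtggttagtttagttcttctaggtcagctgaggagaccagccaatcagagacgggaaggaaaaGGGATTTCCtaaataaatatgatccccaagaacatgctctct
Cxcl14: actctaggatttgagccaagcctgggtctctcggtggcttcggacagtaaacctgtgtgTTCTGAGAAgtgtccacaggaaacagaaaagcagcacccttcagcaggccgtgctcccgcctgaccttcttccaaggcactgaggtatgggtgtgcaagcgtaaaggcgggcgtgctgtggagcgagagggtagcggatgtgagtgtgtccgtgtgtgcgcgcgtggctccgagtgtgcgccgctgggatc
The PU.1 core began 33 bases before the Ccl3 start, the long kappaB form in 2 overlapping matches 97 and 96 bases before the Cxcl2 start, the short kappaB form 42 bases before the Cxcl9 start and the interferon-gamma-activated sequence 191 bases before the Cxcl14 start. Of 32851 promoters of the same length, the PU.1 core was in 23.3%, the short kappaB form in 1.43%, the long form in 1.21% and the interferon-gamma-activated sequence in 7.02%. A match is a description of the letters only.

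Summed over all kept cells, Cxcl2 was higher in both the AngII and the SLE123 library than in control, Cxcl14 was found in SLE123 alone, and Cxcl16 was higher in SLE123. Ccl5, Ccl6, Ccl9 and Cxcl9 were lower in both. Each of these differences was larger than its counting error. In the SLE123 library 2 of 10 members, Cxcl2 and Cxcl14, were over 2-fold higher than in the control library, where 7.7% of 13879 genes were, and 0 were over 2-fold lower, against 3.36% of genes. Both rested on hashtag C0303. Without it 0 members were over 2-fold higher on the minimum of 20 UMIs, and Ccl6 was over 2-fold lower. No share of all genes was set beside these counts. Cxcl14 then had 13 UMIs, under that minimum, but was still at least 4.42-fold above a floor of 3 counts in the control library. In the AngII library Cxcl2 alone of 9 members tested was over 2-fold higher (3.73% of 13919 genes) and Ccl22 alone over 2-fold lower (1.34% of genes). Cxcl14 had 0 UMIs in both libraries and so no ratio. The median log2 ratio of the members was -0.21 for SLE123, against -0.07 over all genes, and -0.67 for AngII, against 0.03 over all genes.

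Among myeloid cells, taken as first-round clusters with at least 1000 CPM (counts per 1000000 UMIs) of the myeloid gene Cst3 and without neutrophil-like cells, 4 of 10 members were over 2-fold higher in SLE123, namely Ccl3, Ccl4, Cxcl2 and Cxcl14. The share of all 10435 genes was 5.34% in that direction, and 0 members were lower beside 1.99% of genes. Without hashtag C0303 the members over 2-fold higher were Ccl3 (1.01), Cxcl2 (1.53) and Cxcl16 (1.15), of which Ccl3 had an interval that included 0 (-0.20 to 2.30). With it, the interval of Cxcl2 included 0 (-0.24 to 2.51). Cxcl14 without C0303 had 9 UMIs, under the minimum of 20, but was at least 3.56-fold above the control floor. No share of all genes was set beside the list without C0303. In AngII myeloid cells Cxcl2 was over 2-fold higher (2.14% of 9862 genes) and Ccl4 over 2-fold lower (1.39% of genes) among 8 members tested. The numbers of myeloid cells were 845 control, 540 AngII and 1582 SLE123. Of these, 33 control, 0 AngII and 2 SLE123 cells formed an unnamed second-round cluster, cluster 12, with monocyte genes (Fn1, Ccr2) and NK cell genes (Ncr1, Gzma, Nkg7) among its leading genes, a median of 728 UMIs and 806 CPM of Cst3. It held 24 of the 32 control Ccl4 UMIs (709 CPM) and Ccl5 at 7503 CPM. Leaving it out was tried after the data had been seen. The same 4 members were then over 2-fold higher in SLE123 (5.38% of 10416 genes) and 0 lower (1.97%), and in AngII Cxcl2 was higher (2.23% of 9847 genes) and 0 of 7 members tested were lower (1.28%).

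**Figure D1:**
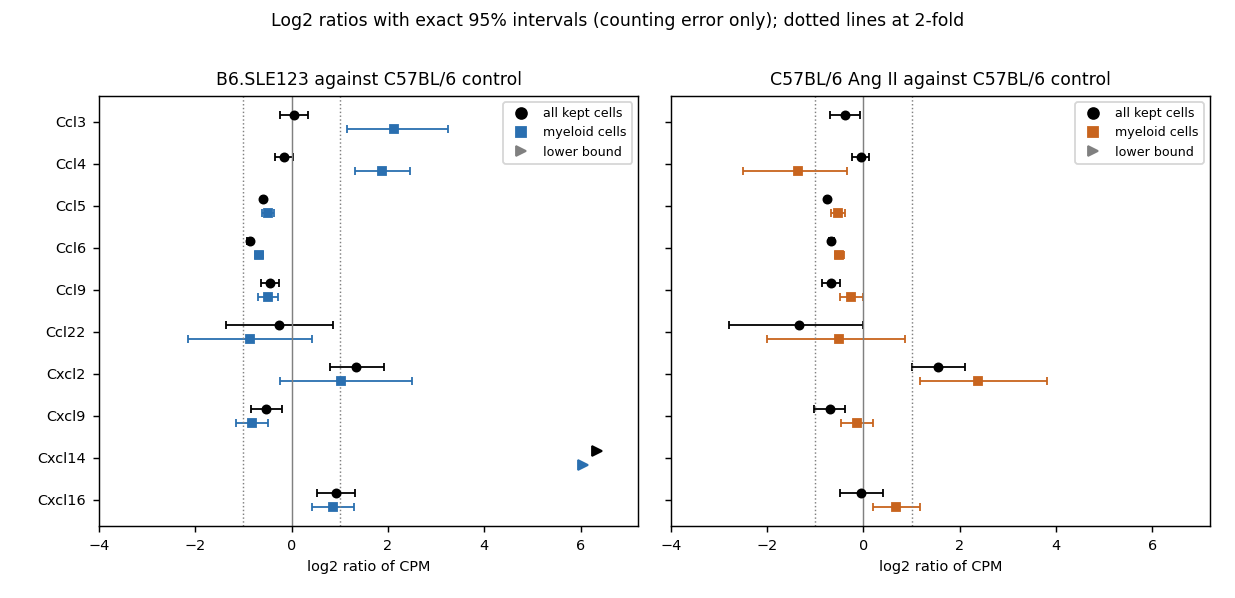
Log2 ratio of CPM in the AngII and SLE123 libraries against the control library for each chemokine, in all kept cells (circles) and in myeloid cells (squares), with exact 95% intervals for counting error and triangles for lower bounds. Cxcl2 lies above 1 in both libraries (1.54 and 1.35 in all kept cells), Cxcl14 has only lower bounds in SLE123, and Ccl5, Ccl6 and Ccl9 lie below 0 in all kept cells. The AngII myeloid ratio of Ccl4 lies at -1.36 and is 0.63 without cluster 12. Ratios that rest on under 20 UMIs are not drawn.

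The hashtag populations of a library overlapped those of the control library for every member. In all kept cells 0 members had all 6 SLE123 hashtags above all 6 control hashtags, where 6.53% of genes did, and 0 had all 6 below, where 10.4% did. The same counts for AngII were 0 above and 0 below, against 3.42% and 4.17% of genes. Differences between the summed libraries are therefore read beside the range over hashtags.

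**Figure D2:**
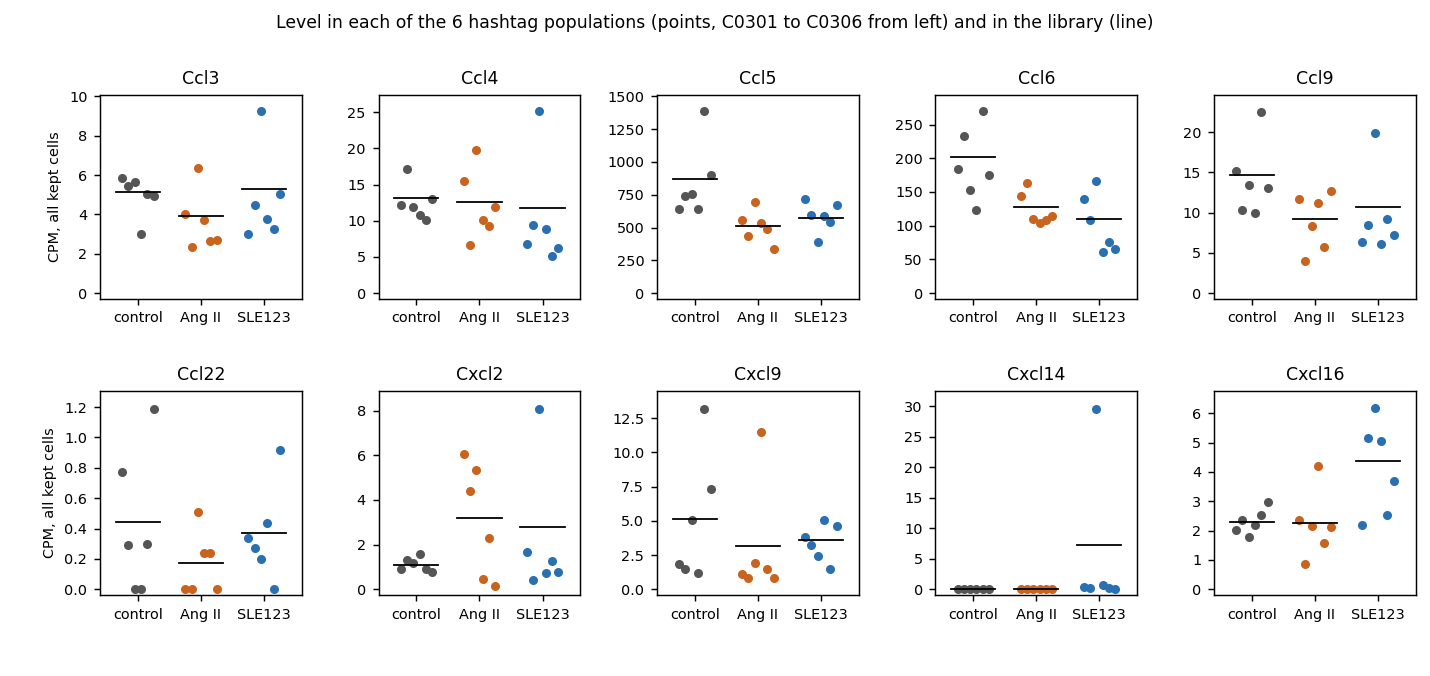
CPM of each chemokine in all kept cells, 1 point per hashtag population (C0301 to C0306 from left to right) and a line at the whole library's value, for the control, AngII and SLE123 libraries. SLE123 hashtag C0303 lies far above the other 5 for Ccl4 (25.1 CPM), Ccl9 (19.8), Cxcl2 (8.07) and Cxcl14 (29.5), and the 3 libraries overlap in every panel.

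Cells of different classes produced different members. Ccl5 UMIs came from natural killer (NK) cell-like cells, Ccl3 and Ccl4 from NK cell-like and basophil/mast-like cells, Ccl6 from neutrophil-like, monocyte-like and basophil/mast-like cells, and Ccl9 from classical monocyte-like and basophil/mast-like cells. Cxcl2 came from neutrophil-like cells, Cxcl9 from cDC1-like cells (conventional dendritic cells marked by Xcr1 and Clec9a), Ccl22 and Cxcl16 from migratory dendritic cell-like cells (migratory DC-like, marked by Ccr7 and Fscn1), and Cxcl14 from the C1q moDC-like cells. In B cell-like cells, the most numerous class, the level of each member was at most 0.30% of the level in its leading class.

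**Figure D3:**
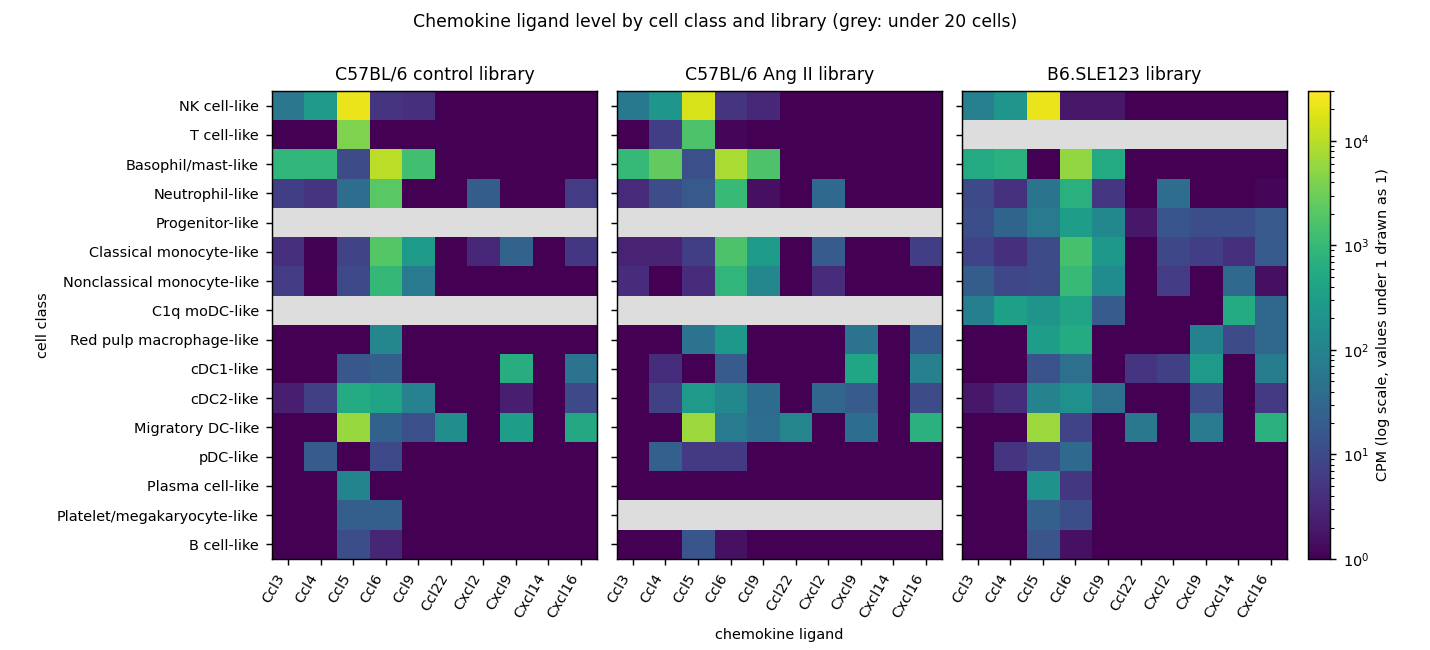
CPM of the 10 chemokines (log colour scale) in 16 named cell classes of the control, AngII and SLE123 libraries. Classes with under 20 cells are grey and values under 1 CPM are drawn as 1. Ccl5 is brightest in NK cell-like cells (15891 to 22039 CPM), Ccl6 in basophil/mast-like cells (5639 to 10307 CPM), and Cxcl14 is seen in SLE123 cells alone.

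**Figure D4:**
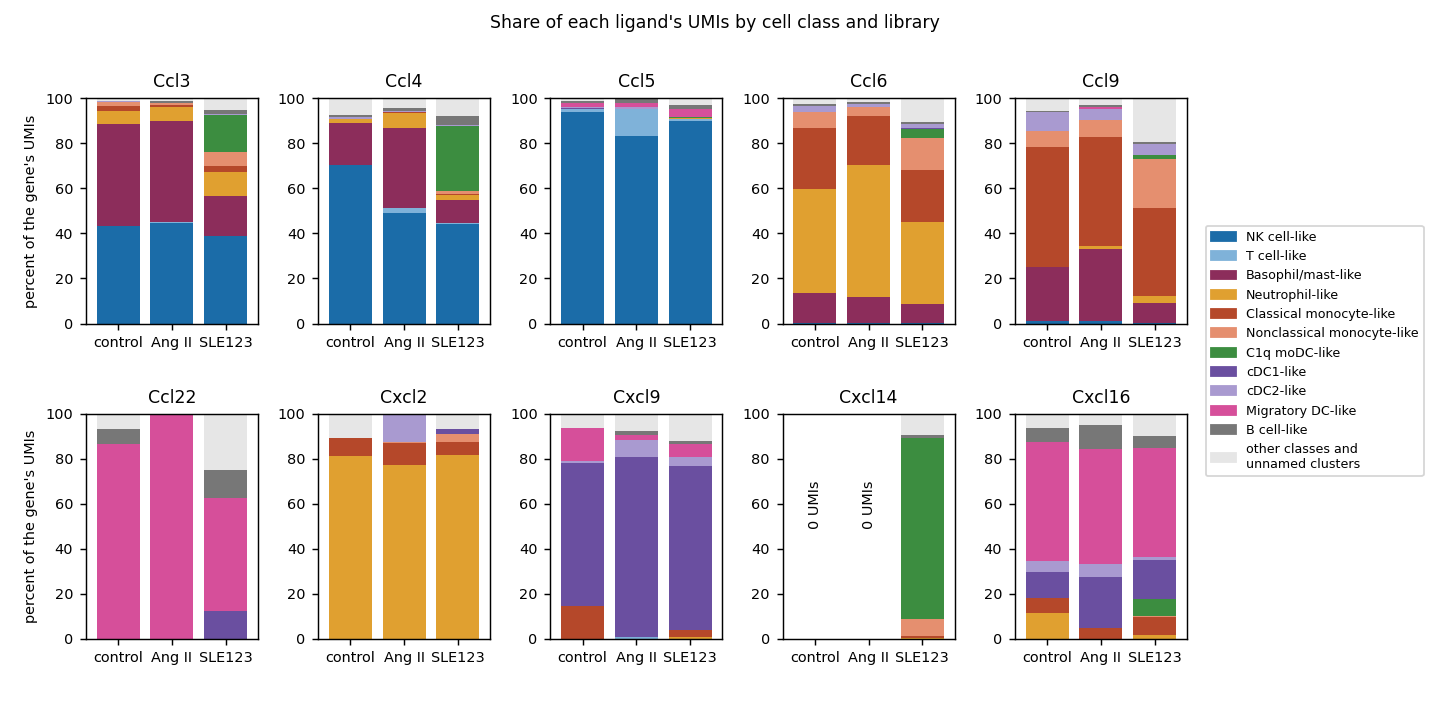
Share of each chemokine's UMIs, in percent, by producing cell class in each library (stacked bars from 0 to 100). NK cell-like cells hold 83.4% to 93.9% of Ccl5 UMIs, neutrophil-like cells 77.2% to 81.7% of Cxcl2 UMIs and cDC1-like cells 63.8% to 79.9% of Cxcl9 UMIs.

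Ccl3 and Ccl4 encode the macrophage inflammatory proteins 1-alpha and 1-beta. Ccl3 gave 174, 179 and 229 UMIs in the control, AngII and SLE123 libraries, or 5.15, 3.94 and 5.31 CPM. Its log2 ratio was 0.04 in SLE123 (-0.25 to 0.34) and -0.39 in AngII (-0.70 to -0.08). Over hashtags Ccl3 ran from 2.99 to 5.87 CPM in control (median 5.24), from 2.36 to 6.37 in AngII (median 3.21) and from 3.01 to 9.27 in SLE123 (median 4.11). The highest was SLE123 hashtag C0303, and the 3 ranges overlapped.

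Ccl4 gave 442, 571 and 506 UMIs, or 13.1, 12.6 and 11.7 CPM, with log2 ratios of -0.16 in SLE123 (-0.34 to 0.03) and -0.06 in AngII (-0.24 to 0.12). The totals were thus close in the 3 libraries, but in SLE123 this rested on hashtag C0303, which held 252 of the 506 UMIs. Without it the SLE123 level was 7.67 CPM, a log2 ratio of -0.77 (-0.998 to -0.543). Over hashtags Ccl4 ran from 10.1 to 17.2 CPM in control (median 12.1) and from 6.58 to 19.8 in AngII (median 11.01). SLE123 hashtags ran from 5.07 to 25.1 CPM (median 7.84). The cells that held the totals were also not the same. NK cell-like cells held 70.4% of Ccl4 UMIs in control (65.9% to 74.6%), 49.2% in AngII and 44.3% in SLE123. Basophil/mast-like cells held 18.8%, 35.6% and 10.3%. In SLE123 the C1q moDC-like cells held 28.9%. This class was 1 cluster, to which 0 cells of the other libraries were assigned. Unnamed cluster 4, with C1qb and Fcgr4 beside immunoglobulin genes among its leading genes, held 57 control, 41 AngII and 138 SLE123 cells. Absence of such cells from the other libraries is therefore not concluded.

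Within NK cell-like cells (620, 471 and 663 cells) neither gene passed a 2-fold difference. Ccl3 stood at 60.1, 65.3 and 87.4 CPM, a log2 ratio of 0.54 for SLE123 (0.08 to 1.0), and its hashtags ran from 19.8 to 94.0 CPM in control and from 33.5 to 145 in SLE123. Ccl4 stood at 249, 229 and 220 CPM. NK cell-like cells with a Ccl4 UMI made up 23.2%, 24.4% and 16.4% at median depths of 1729.5, 2335 and 1331 UMIs, beside 0.0482%, 0.0761% and 0.119% of B cell-like cells at 1677, 2600 and 1873 UMIs. After each cell was thinned to 1000 UMIs, which left out 55, 61 and 169 NK cell-like cells, the shares were 15.8%, 14.9% and 16.0%, so the lower SLE123 share was seen at unequal depth only. Of control NK cell-like cells with a Ccl3 UMI, 39.0% also held Ccl4, beside 21.6% of those without, and the same comparison gave 53.4% and 20.3% in AngII and 28.4% and 15.1% in SLE123.

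Basophil/mast-like cells were few, 46, 24 and 28, and carried high levels of both genes. Their Ccl3 level was 876, 987 and 554 CPM. Their Ccl4 level was 920 CPM in control (83 UMIs), 2505 CPM in AngII (203 UMIs) and 703 CPM in SLE123 (52 UMIs). The AngII level was over 2-fold higher, a log2 ratio of 1.45 (1.07 to 1.83), which stayed between 1.10 and 1.66 when any 1 hashtag of either library was left out. When barcodes positive for several hashtags were kept, it was 0.79. A single AngII cell held 41 of the 203 UMIs. In SLE123 the basophil/mast-like cells differed in their own markers, with 28412 CPM of Prss34 and 3935 CPM of Mcpt8 (both basophil proteases) against 432 and 366 CPM in control, and the part of that difference in the chemokine levels was not tested.

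In myeloid cells Ccl3 and Ccl4 were higher in SLE123, and hashtag C0303 held 50 of 67 Ccl3 and 149 of 180 Ccl4 UMIs. Ccl3 had 67 UMIs (15.7 CPM) against 10 (3.60 CPM) in control, a log2 ratio of 2.13 (1.16 to 3.25), and 1.01 without C0303. Ccl4 had 180 UMIs (42.3 CPM) against 32 (11.5 CPM), a log2 ratio of 1.88 (1.33 to 2.47), and 0.20 without C0303. Without cluster 12 control had 8 Ccl4 UMIs (2.92 CPM), and the ratio was 3.84 with C0303 and 2.09 (0.93 to 3.43) without it. The C1q moDC-like cells gave 38 of the Ccl3 and 146 of the Ccl4 UMIs. The 174 of them in C0303 held Ccl4 at 309 CPM and Ccl3 at 86.6 CPM. The 20 outside it held Ccl4 at 604 CPM (21 UMIs) and Ccl3 at 86.2 CPM (3 UMIs). In AngII, Ccl4 in myeloid cells was 4.5 CPM on 11 UMIs, a log2 ratio of -1.36 (-2.49 to -0.33) that was 0.63 (-0.82 to 2.14) without cluster 12. In AngII neutrophil-like cells Ccl4 was higher, with 38 UMIs (11.7 CPM) against 7 (4.80 CPM), a log2 ratio of 1.28 that stayed between 1.06 and 1.5 with any 1 hashtag left out. Ccl3 in those cells rested on 11 UMIs against 10, a ratio of -1.02 that was 0.14 without control hashtag C0305. The neutrophil-like class joined 2 clusters whose shares differed between the libraries, as given with Ccl6. Within cluster 22, which held all of these Ccl3 UMIs, the AngII ratio of Ccl3 was -0.05 (-1.43 to 1.34) and that of Ccl4 2.09 (0.89 to 3.51). The SLE123 ratio of Ccl3 there was 1.89 (0.73 to 3.15), on 20 UMIs against 10. SLE123 B cell-like cells held 20 Ccl4 UMIs against 5, a ratio of 1.40 (-0.06 to 3.17). All 20 were in cluster 13, which held 79.7% of SLE123 and 1.30% of control B cell-like cells.

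Ccl5, also called RANTES, is stored and released by cytotoxic lymphocytes and draws T cells and monocytes. It was lower in both models over all kept cells, with 29288, 23364 and 24749 UMIs, or 867, 514 and 574 CPM. The log2 ratios were -0.75 in AngII (-0.78 to -0.73) and -0.59 in SLE123 (-0.62 to -0.57). Control hashtags ran from 643 to 1388 CPM (median 748), AngII hashtags from 334 to 695 (median 512) and SLE123 hashtags from 393 to 718 (median 590). The highest AngII and SLE123 hashtags lay above the lowest control hashtag, and control C0305 at 1388 CPM lay well above its own library. Without control C0305 the ratios were -0.52 in AngII and -0.36 in SLE123. With the limits on cells read as UMIs they were -0.69 in AngII and -0.12 in SLE123, so the SLE123 difference depended on these limits.

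NK cell-like cells held 93.9%, 83.4% and 89.8% of Ccl5 UMIs. In SLE123 their level, 21817 CPM, was close to the 22039 CPM of control, a log2 ratio of -0.01 (-0.04 to 0.01), and the class took 2.36% of the library's UMIs against 3.69% in control. As a share of kept cells the class was alike, 3.97% against 3.95%, at median depths of 1331 and 1729.5 UMIs. Plasma cell-like cells took 6.93% of UMIs in SLE123 and 0.642% in control. The part of each in the Ccl5 total was not tested. In AngII the level in NK cell-like cells was 15891 CPM, a log2 ratio of -0.47. The hashtags of the NK cell-like class ran from 15078 to 17588 CPM in AngII and from 18984 to 29777 CPM in control. No share of all genes with ranges apart in this class was set beside these values, so nothing is concluded from the gap. Nearly every NK cell-like cell held a Ccl5 UMI, namely 98.2%, 95.3% and 96.8%, beside 2.00%, 3.12% and 1.79% of B cell-like cells at the depths given above.

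Ccl5 UMIs were also counted in other classes. Plasma cell-like cells held 2.38% of them in SLE123, with 589 UMIs in 25 of 314 cells. Their level was 197 CPM there and 106 CPM in control on 23 UMIs, and AngII had 0 UMIs. Migratory DC-like cells held Ccl5 at 6005, 6266 and 6346 CPM (33, 32 and 70 cells), with log2 ratios near 0. T cell-like cells held it at 4042 CPM in control (45 cells) and 1656 CPM in AngII (420 cells), and took 11.7% of Ccl5 UMIs in AngII. The AngII ratio in that class, -1.29, was -0.79 without AngII hashtag C0303, which supplied most of the cells. In cDC2-like cells (conventional dendritic cells marked by Sirpa and Clec4a4) Ccl5 was 568 CPM in control, 263 in AngII and 99 in SLE123, on 238, 152 and 51 UMIs. The log2 ratios were -1.11 in AngII and -2.52 in SLE123 (-2.99 to -2.08), and the latter stayed between -2.86 and -2.14 with any 1 hashtag left out. It was -1.75 with chemokine ligands left in the clustering, and between -2.06 and -2.05 at the higher resolution and with 2 of 5 other seeds. A single cDC2-like cluster with 74, 69 and 74 cells held nearly all of it, at 1162, 429 and 194 CPM. The share of cDC2-like cells with a Ccl5 UMI was 41.8%, 33.6% and 16.7% at median depths of 2605, 4888.5 and 3008.5 UMIs, so it was lower in both models although their cells were deeper, and the B cell-like shares are those given above. In neutrophil-like cells Ccl5 had 58 control and 57 AngII UMIs, a ratio of -1.19 that was 0.70 without control hashtag C0302 and 2.55 when barcodes positive for several hashtags were kept. Within cluster 22 it was -0.27 (-0.85 to 0.31).

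Ccl6 and Ccl9 are neighbouring genes for CC chemokines made by myeloid cells of rodents. Ccl6 was lower in both models, with 6829, 5778 and 4773 UMIs, or 202, 127 and 111 CPM. The log2 ratios were -0.67 in AngII (-0.72 to -0.62) and -0.87 in SLE123 (-0.92 to -0.82). Control hashtags ran from 123 to 270 CPM (median 180.0), AngII hashtags from 104 to 164 (median 112) and SLE123 hashtags from 60.8 to 167 (median 91.9). Without SLE123 C0303, the highest hashtag of that library, the ratio was -1.11.

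Neutrophil-like cells held 46.1%, 58.7% and 36.3% of Ccl6 UMIs, and their level was 2161 CPM in control, 1040 CPM in AngII and 694 CPM in SLE123. These are log2 ratios of -1.06 and -1.64 (-1.72 to -1.55), past 2-fold in both. Without AngII hashtag C0302 the AngII ratio was -0.76, and without SLE123 hashtag C0303 the SLE123 ratio was -1.09. With TMM scaling the AngII ratio was -0.93. With the limits of 200 and 3500 on cells read as UMIs, in place of genes detected, the ratios were -0.18 and -0.86, no longer past 2-fold. Neutrophil-like cells with a Ccl6 UMI made up 76.5%, 55.8% and 50.5% (medians of 1191, 2099.5 and 1683 UMIs), beside 0.453%, 0.446% and 0.341% of B cell-like cells. Thinned to 1000 UMIs, the shares were 68.8%, 50.7% and 30.3%, with 225, 49 and 265 cells of lower depth left out.

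The neutrophil-like class was made of 2 clusters, and looking at them separately was decided after the class values had been seen. Cluster 22 was led by Il1b, Csf3r and Cxcr2, genes of mature neutrophils, and cluster 25 by Camp, Ngp and Ltf, the granule genes of immature neutrophils. Cluster 22 made up 82.0% of control neutrophil-like cells (78.8% to 84.8%), 60.3% in AngII (56.7% to 63.9%) and 48.9% in SLE123 (45.3% to 52.5%). Ccl6 within cluster 22 was 4470, 4103 and 3690 CPM, log2 ratios of -0.12 (-0.20 to -0.05) and -0.28 (-0.37 to -0.18), and within cluster 25 it was 83.4, 63.5 and 169 CPM. Within cluster 22, the cluster rich in Ccl6, the libraries were thus closer than in the class, though both intervals excluded 0. Within cluster 25 the ratios were -0.39 (-0.82 to 0.05) in AngII and 1.02 (0.64 to 1.43) in SLE123. Cluster 25 cells also had more UMIs (medians of 5465, 7554 and 4414 UMIs, against 1081, 1645 and 802.5 in cluster 22). The part of cluster shares and of depth in the gap of the class was not tested.

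**Figure D5:**
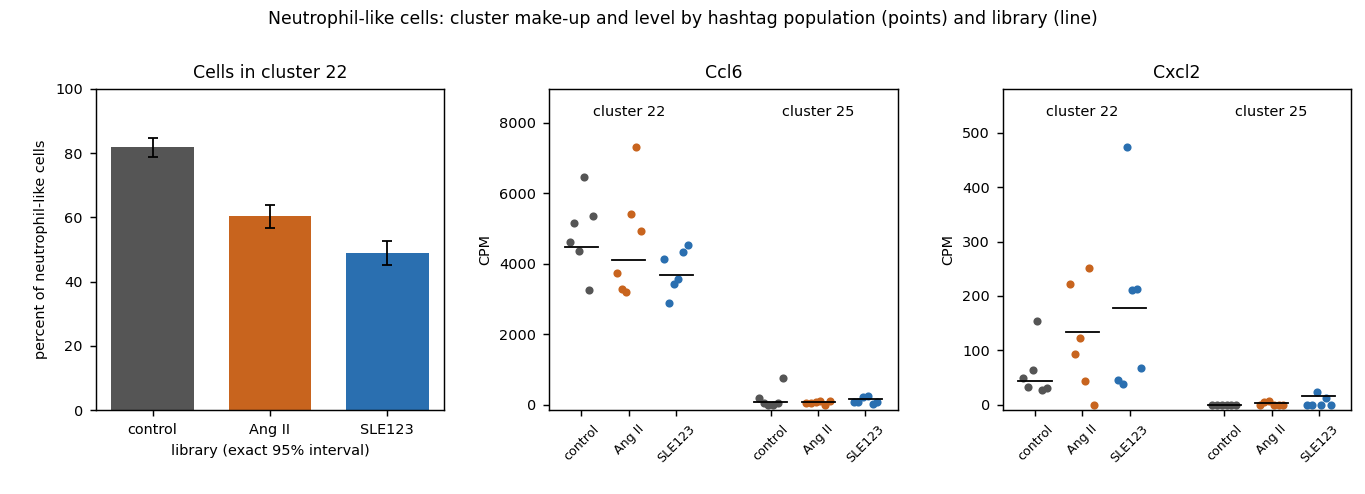
Left, percent of neutrophil-like cells in cluster 22 (led by Il1b, Csf3r and Cxcr2) per library with exact 95% intervals. Middle and right, CPM of Ccl6 and Cxcl2 in clusters 22 and 25 by hashtag. Cluster 22 holds 82.0% of the cells in control, 60.3% in AngII and 48.9% in SLE123, its Ccl6 has medians of 4896, 4337 and 3848 CPM over hashtags, and its Cxcl2 has medians of 40.9, 108 and 138 CPM.

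Outside neutrophil-like cells, Ccl6 was 1951, 1715 and 1475 CPM in classical monocyte-like cells and 950, 876 and 1024 CPM in nonclassical monocyte-like cells, none past 2-fold. In cDC2-like cells it was 406, 123 and 177 CPM, log2 ratios of -1.72 in AngII and -1.2 in SLE123, which were -1.21 and -0.79 when barcodes positive for several hashtags were kept. In SLE123 red pulp macrophage-like cells (81, against 29 in control) it was 564 CPM on 54 UMIs against 120 CPM on 4, a log2 ratio of 2.24, with 28 of the UMIs in 1 cell. In SLE123 cDC1-like cells it had 19 UMIs against 4, a ratio of 1.01 (-0.58 to 3.02) that was -0.16 when barcodes positive for several hashtags were kept. Basophil/mast-like cells had the highest Ccl6 level, 10307, 8169 and 5639 CPM. The SLE123 ratio there, -0.87 (-1.04 to -0.70), was -0.33 without hashtag C0303.

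Ccl9 gave 495, 418 and 463 UMIs, or 14.6, 9.19 and 10.7 CPM, with log2 ratios of -0.67 in AngII (-0.86 to -0.48) and -0.45 in SLE123 (-0.63 to -0.26). Control hashtags ran from 9.96 to 22.6 CPM (median 13.2), AngII hashtags from 4.05 to 12.7 (median 9.77) and SLE123 hashtags from 6.08 to 19.8 (median 7.87), the last again C0303. Without C0303 the SLE123 ratio was -0.88. With the limits on cells read as UMIs the SLE123 ratio over all kept cells was -0.08. Classical monocyte-like cells held 52.9%, 48.6% and 39.1% of the UMIs. Their Ccl9 level was 277 CPM in control, 276 in AngII and 243 in SLE123, log2 ratios of -0.0012 and -0.19, while they made up 1.32%, 0.742% and 1.11% of kept cells. At control class shares the AngII level of Ccl9 was 15.2 CPM, a log2 ratio of 0.05 in place of -0.67. These values depended on the limits on cells. With the limits read as UMIs the AngII ratio within the class was -0.69, the AngII level at control class shares was 7.98 CPM and the class held 22.7%, 11.2% and 26.3% of Ccl9 UMIs.

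In nonclassical monocyte-like cells Ccl9 was instead higher, with 73.4, 117 and 151 CPM on 37, 31 and 101 UMIs. The SLE123 ratio was 1.04 (0.49 to 1.63), and 0.51 without control hashtag C0305. Different clusters held the class in these libraries. In SLE123, 425 of 450 cells were in a cluster led by Fabp4 and Ear2, and in control 210 of 221 were in a cluster led by Ace and Apoc2. Basophil/mast-like cells held Ccl9 at 1319, 1654 and 554 CPM, and the SLE123 ratio of -1.25 (-1.80 to -0.73) was -0.73 without hashtag C0303. Most classical monocyte-like cells held a Ccl6 UMI, 198 of 208, 100 of 104 and 162 of 186. Of these, 65.2%, 78.0% and 55.6% also held Ccl9, close to the 63.0%, 75.0% and 52.2% of the whole class. Among the few cells without Ccl6 the shares were 20%, 0% and 29.2%. In basophil/mast-like cells with and without Ccl6 the shares were 82.5% and 50% in control. They were 90.5% and 100% in AngII, and 63.6% and 83.3% in SLE123.

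Cxcl2, a neutrophil attractant also known as macrophage inflammatory protein 2, was the member that was higher in both models. It gave 37 UMIs in control, 145 in AngII and 120 in SLE123, or 1.09, 3.19 and 2.78 CPM. The log2 ratios were 1.54 in AngII (1.01 to 2.10) and 1.35 in SLE123 (0.80 to 1.92). Over hashtags it ran from 0.791 to 1.59 CPM in control (median 1.06), from 0.142 to 6.07 in AngII (median 3.34) and from 0.406 to 8.07 in SLE123 (median 1.02). The AngII hashtags were thus spread on both sides of the control range. In SLE123 the difference rested on hashtag C0303 with 81 of the 120 UMIs, and without it the ratio was 0.11. In AngII the ratio stayed between 1.27 and 1.79 with any 1 hashtag left out.

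Neutrophil-like cells held 81.1%, 77.2% and 81.7% of Cxcl2 UMIs at 20.6, 34.4 and 39.2 CPM, log2 ratios of 0.74 in AngII and 0.93 in SLE123 (0.33 to 1.57), and the latter was -0.07 without C0303. Cluster 22 held all 30 of the control, 105 of the 112 AngII and 66 of the 98 SLE123 UMIs of the class, and within it Cxcl2 was 43.4 CPM (30 UMIs), 133 CPM (105 UMIs) and 177 CPM (66 UMIs). The ratios there were 1.62 in AngII (1.02 to 2.25, and 1.37 to 1.90 with any 1 hashtag left out) and 2.03 in SLE123 (1.39 to 2.70, and 0.74 without C0303). Hashtag values in cluster 22 overlapped, from 26.9 to 154 CPM in control, 0 to 252 in AngII and 38.2 to 474 in SLE123. Cells with a UMI were few. They made up 3.43%, 4.68% and 6.21% of neutrophil-like cells, and 2.02%, 2.95% and 3.46% after thinning, beside 0%, 0.0109% and 0% of B cell-like cells. In AngII 1 cDC2-like cell carried 17 Cxcl2 UMIs, which is all of the Cxcl2 in that class and 17 of the 32 UMIs behind the AngII myeloid ratio of 2.38 (1.17 to 3.8). That ratio was 1.09 without AngII hashtag C0303.

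Cxcl9, induced by interferon-gamma, draws Cxcr3-bearing T and NK cells. It gave 174, 144 and 154 UMIs, or 5.15, 3.17 and 3.57 CPM, log2 ratios of -0.70 in AngII (-1.03 to -0.37) and -0.53 in SLE123 (-0.85 to -0.21). Over hashtags it ran from 1.2 to 13.2 CPM in control (median 3.46), from 0.844 to 11.5 in AngII (median 1.28) and from 1.45 to 5.06 in SLE123 (median 3.55). The control and AngII totals each rested on 1 hashtag. Without control C0305 the ratios were 0.01 in AngII and 0.18 in SLE123, and without AngII C0304 the AngII ratio was -1.99. With the limits on cells read as UMIs, the SLE123 ratio was 0.77. Single cells mattered, since 1 control classical monocyte-like cell held 25 Cxcl9 UMIs, 1 control migratory DC-like cell held 26, and 1 AngII cDC1-like cell held 51.

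cDC1-like cells held 63.8%, 79.9% and 72.7% of Cxcl9 UMIs. Their level was 620 CPM in control (58 cells), 440 in AngII (67 cells) and 264 in SLE123 (164 cells), on 111, 115 and 112 UMIs. The SLE123 ratio was -1.23 (-1.62 to -0.84), and -0.60 without control hashtag C0305. The class was larger in SLE123, 0.982% of kept cells against 0.369%, so a like number of UMIs came from more cells with less in each. The number of cDC1-like cells with a Cxcl9 UMI was 29 of 58, 27 of 67 and 53 of 164 at median depths of 1932.5, 2832 and 1671 UMIs, beside 0%, 0.0218% and 0.0159% of B cell-like cells, and 19 of 44, 12 of 60 and 32 of 134 after thinning.

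Ccl22, a chemokine of mature dendritic cells that draws Ccr4-bearing regulatory T cells, was rare. It gave 15, 8 and 16 UMIs, and 13, 8 and 8 of these were in migratory DC-like cells, at 158, 111 and 62.5 CPM. Over all kept cells the ratio was -1.34 in AngII (-2.78 to -0.01) and -0.26 in SLE123 (-1.37 to 0.86). Few cells carried it, 7, 5 and 10, and 1 control cell held 5 of the UMIs, so a difference was hardly detectable at this depth. The AngII ratio was -2.06 without AngII hashtag C0303 and 0.61 with the limits on cells read as UMIs.

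Cxcl16 shares the migratory DC-like cells with Ccl22. It gave 78, 102 and 189 UMIs, or 2.31, 2.24 and 4.38 CPM. The SLE123 ratio was 0.92 (0.54 to 1.32) and the AngII ratio -0.04 (-0.48 to 0.40). Hashtags ran from 1.79 to 2.97 CPM in control (median 2.27), from 0.844 to 4.19 in AngII (median 2.15) and from 2.17 to 6.18 in SLE123 (median 4.37). The SLE123 ratio stayed between 0.73 and 1.04 with any 1 hashtag left out. With the limits on cells read as UMIs the ratios were 1.5 in SLE123, past 2-fold, and 0.72 in AngII. Migratory DC-like cells held 52.6%, 51.0% and 48.1% of the UMIs at 499, 719 and 711 CPM, a ratio of 0.51 for SLE123 (-0.04 to 1.08) and 0.53 for AngII. These cells made up 0.210%, 0.228% and 0.419% of kept cells, and at control class shares the SLE123 ratio was 0.48. Cxcl16 in classical monocyte-like cells rested on 5, 5 and 15 UMIs, at 5.28, 6.81 and 20.1 CPM. Among migratory DC-like cells 72.7%, 78.1% and 58.6% held a Cxcl16 UMI (medians of 2111, 1753.5 and 1402 UMIs), beside 0.0482%, 0.12% and 0.0714% of B cell-like cells, and 14 of 28, 13 of 26 and 27 of 49 cells after thinning.

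Cxcl14 was found in the SLE123 library alone. It gave 0 UMIs among 33796208 in control and 0 among 45487504 in AngII, and 309 in SLE123, or 7.16 CPM (6.39 to 8.01). Set against a floor of 3 counts in the control library, this is at least 80.7-fold higher. Over SLE123 hashtags it was 29.5 CPM in C0303 and had a median of 0.303 CPM and a lowest value of 0. Hashtag C0303 held 296 of the 309 UMIs. The other 13 UMIs, in 11 cells, gave 0.393 CPM (0.209 to 0.672), which is at least 4.42-fold above the control floor.

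C1q moDC-like cells held 249 of the Cxcl14 UMIs, 80.6% (75.7% to 84.8%), at 567 CPM. Of the 194 cells, 57.2% had a Cxcl14 UMI at a median of 2204 UMIs, beside 0.0317% of SLE123 B cell-like cells, and 39.0% had one after thinning. No cell held more than 9. The 174 cells in C0303 gave 247 UMIs and 611 CPM, and the 20 outside it gave 2 UMIs and 57.5 CPM (6.96 to 208), so the level within the class was also lower outside C0303. Nonclassical monocyte-like cells gave 23 UMIs at 34.5 CPM, at least 5.79-fold above the control floor, of which 21 came from the 204 cells in C0303 and 2 from the 246 others. As C0303 is 1 of 6 hashtags and the labels do not give its condition, the C1q moDC-like class and its Cxcl14 cannot be told apart from that hashtag. Of C1q moDC-like cells with Cxcl14, 32.4% also held Ccl4, against 26.5% of those without.

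Weighting each class by its share of UMIs in the control library set these UMI shares equal, but not the shares of clusters inside a class. A share of UMIs depends on depth as well as on the number of cells. At control shares Ccl5 in SLE123 was 859 CPM, a log2 ratio of -0.01 in place of -0.59, and in AngII 622 CPM, -0.48 in place of -0.75. Ccl6 had ratios of -0.86 in SLE123 and -0.59 in AngII, and of -0.33 and -0.21 when the neutrophil-like clusters were weighted separately, which was added after the data had been seen. Cxcl2 had ratios of 0.97 in SLE123 and 1.17 in AngII, and of 2.01 and 1.78 with the clusters weighted separately. The SLE123 values include hashtag C0303, without which the unweighted Cxcl2 ratio was 0.11 and the ratio within cluster 22 was 0.74. Cxcl9 in SLE123 was lower still, at -1.26. Cxcl14 at control shares was 1.10 CPM, since no control cell was assigned to the C1q moDC-like cluster.

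Other chemokine genes were counted in the same way. Of 28 other ligands 27 were in the tables, and 8 had at least 20 UMIs for the SLE123 comparison and 7 for AngII. In SLE123 all kept cells 3 were over 2-fold higher (7.7% of 13879 genes) and 0 lower (3.36%). These were Cxcl10 (221 against 58 UMIs, log2 ratio 1.58), another Cxcr3 ligand, Pf4 (446 against 134, 1.38), a platelet chemokine, and Ccl17 (57 against 19, 1.23), which shares Ccr4 with Ccl22. In SLE123 myeloid cells Cxcl10 was lower instead (-1.04), alone of 4 ligands tested (1.99% of 10435 genes), and 0 were higher (5.34%). In AngII 0 ligands were higher (3.73% of 13919 genes) and 2 were lower (1.34%), the platelet genes Pf4 (-1.66) and Ppbp (-1.11). Of 23 chemokine receptors 19 were tested in each comparison of all kept cells, beside the same shares of all genes. In SLE123 3 were higher, Ccr10 (2.88), Ackr4 (2.17) and Cxcr3 (1.95), and in AngII Cxcr6 (1.74) and Cxcr1 (1.10) were higher and Cx3cr1 (-1.18) lower. Among myeloid cells 0 of 14 receptors in SLE123 (Cxcr2 alone without cluster 12) and Ccr3 (1.05) among 13 in AngII passed 2-fold. The shares of all genes higher and lower there were 5.34% and 1.99% in SLE123. Without cluster 12 they were 5.38% and 1.97%, and in AngII 2.14% and 1.39%.

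Profiles over classes were compared across 42 sums of 1 class in 1 library, with the 3 genes most like each member among 11222 genes. The sums share libraries and depth, so Pearson's r is given as a description. Ccl3 and Ccl4 were most like each other (r = 0.95), followed for both by Sytl3 (0.88 and 0.89) and then by Blm (0.87) for Ccl3 and Rab37 (0.87) for Ccl4. Ccl6 was most like Lilrb4a (0.96), Gsr (0.94) and Emilin2 (0.93), and Ccl9 like Emilin2 (0.89), G430095P16Rik (0.89) and Cebpa (0.86). Ccl5 was most like Tnfrsf9 (0.90), Tcf7 (0.87) and Adora2a (0.78), Cxcl2 like Clec5a (0.88), Cd177 (0.83) and Mmp8 (0.83), and Cxcl9 like Anpep (0.85), Rtl8c (0.84) and Tspan33 (0.84). Cxcl16 was most like Apol7c (0.92), Iscu (0.90) and Slc4a8 (0.87), and Cxcl14 like Sox5 (0.87), Lipg (0.85) and Actr3b (0.81). Among member pairs the next highest were Ccl22 with Cxcl16 (0.85), Ccl6 with Ccl9 (0.80) and Cxcl9 with Cxcl16 (0.76).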

How the data were processed

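Spleen cells were loaded for 12000 cells per well on the 10x Genomics 5′ chemistry. Per the file headers the authors made the UMI counts with Cell Ranger 6.0.0, and the submitters' processing notes name the mm10 build. The deposited values are raw counts per gene and per hashtag antibody in filtered barcodes.

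From these counts, barcodes with more than 200 and fewer than 3500 genes detected and under 15% mitochondrial UMIs were kept. A threshold per hashtag by Otsu's method removed barcodes positive for several hashtags (13.5%, 11.4% and 18.0% of those within the limits) as doublets, and doublets within 1 hashtag stayed. Cells were scaled to 10000 UMIs and clustered with scanpy 1.11.5 and leidenalg 0.10.2 (2000 variable genes without chemokine ligands, 30 principal components, 20 neighbours, resolution 0.8, seed 7). Myeloid clusters were clustered again on their own. A cluster was named from markers, with "-like" added, when at least 3 of them were high in it. Counts were summed per class and library and given as CPM of that sum, with exact Poisson intervals for levels, exact Clopper-Pearson intervals for shares and exact conditional intervals for ratios (scipy 1.17.1). Past 2-fold means a log2 ratio beyond 1 either way on at least 20 UMIs over both libraries. A gene at 0 was set to a floor of 3 counts. Classes under 20 cells were not compared. For likeness, log2(CPM + 10) was used.

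The members and lists were chosen with earlier results of these data known. All 10 members are named, and of the other ligands and receptors those past 2-fold. For likeness, the 3 genes of highest r were named for members with at least 200 UMIs. Other genes named were chosen after their values were seen. Gene positions are from GENCODE vM21, matched by Ensembl ID. Alternatives were other limits, no doublet removal, edgeR 4.0.16 TMM scaling, other clusterings and each hashtag left out in turn. The intervals were tested on simulated data. Ligands left in the clustering, 5 other seeds, resolution 1.2, cells thinned to 1000 UMIs, 1.5-fold and minimums of 50 or 1 UMI were also tried.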

Additional observations from a re-analysis of the deposited data

Results flagged for a closer look

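For each chemokine with a UMI in a library (all kept cells), the values of the 6 hashtag populations were compared. The highest and lowest value were compared with the rest by Dixon's ratio against its 95% critical value. Chance alone marks about 1 set in 20. Of the 8 hashtag values that passed, 5 belonged to SLE123 hashtag C0303, namely Ccl3 at 9.27 CPM, Ccl4 at 25.1 CPM, Ccl9 at 19.8 CPM, Cxcl2 at 8.07 CPM and Cxcl14 at 29.5 CPM, each far above the other 5 hashtags. This hashtag also held most of the C1q moDC-like cells of its library (174 of 194) and 307 of its 757 neutrophil-like cells, and it had the deepest cells, and the part of each in these values was not tested.

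Ccl3 stood low in control hashtag C0304 (2.99 CPM). Ccl5 stood high in control hashtag C0305 (1388 CPM), where NK cell-like cells held it at 29777 CPM, the highest of that class in the library. Cxcl9 stood high in AngII hashtag C0304 (11.5 CPM), where cDC1-like cells held it at 889.9 CPM and 1 cell of the AngII class held 51 UMIs.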

How the results depend on the processing

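Over 1613 recomputed log2 ratios, 1460 stayed within their counting interval, 146 moved out of it and 7 changed sign after passing 2-fold. With barcodes positive for several hashtags kept, Ccl6 in SLE123 cDC1-like cells was -0.16, Ccl22 in SLE123 migratory DC-like cells 0.40 (-1.34 as reported) and Ccl5 in AngII neutrophil-like cells 2.55. With the limits on cells read as UMIs, Ccl22 in AngII was 0.61. With any 1 hashtag left out, Ccl5 in AngII neutrophil-like cells ran from -3.73 to 0.70 (the latter without control hashtag C0302) and Ccl3 in the same cells from -1.25 to 0.14 (without control hashtag C0305). Leaving cluster 12 out of the myeloid cells, tried after the data had been seen, turned Ccl4 in AngII myeloid cells to 0.63, with 0 members lower there and 1 receptor higher in SLE123. Apart from that, the cause was not tested. Reading the limits as UMIs kept 13908, 9988 and 13527 cells and made 1 member over 2-fold lower in SLE123 myeloid cells and 2 in AngII myeloid cells, 0 other ligands lower and 1 receptor higher and 3 lower in AngII, and 2 receptors higher in AngII myeloid cells. It moved Ccl6 in neutrophil-like cells to -0.86 in SLE123 and -0.18 in AngII. Keeping barcodes with several hashtags gave 1 higher ligand in the myeloid cells of each comparison. At 1.5-fold 2 members, 2 ligands and 3 receptors were lower in SLE123 and 5 members in AngII. With at least 50 UMIs 0 members were lower and 1 receptor higher in AngII. With no minimum 1 ligand and 1 receptor were lower in SLE123 and 2 receptors in AngII. Apart from those without cluster 12, no share of all genes was set beside these counts or the counts below. They show only how the calls moved and cannot be compared with the rate over all genes.

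With any 1 hashtag left out, the members over 2-fold in SLE123 numbered 0 to 3 higher (0 without C0303) and 0 to 1 lower, and 0 to 2 lower in myeloid cells. Without C0303 Cxcl14 fell under the minimum of 20 UMIs and was not counted. In AngII 0 to 2 were lower, and in myeloid cells 0 to 1 higher and 1 to 2 lower. Other ligands numbered 0 to 1 lower in SLE123 (0 to 2 higher and 0 to 1 lower in myeloid cells), and 0 to 1 higher and 0 to 3 lower in AngII (0 to 1 in each direction in myeloid cells). Receptors numbered 0 to 2 higher and 0 to 1 lower in SLE123 myeloid cells, 0 to 3 higher and 0 to 1 lower in AngII, and 0 to 1 higher in AngII myeloid cells. No paired analysis was possible because each group was 1 library. Scaling by TMM factors shifted ratios by under 0.1 in all kept and myeloid cells and by up to 0.43 within a class (SLE123 red pulp macrophage-like cells). Genes with few UMIs, Ccl22 above all, were limited by depth.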
